A study of Homo sapiens with 15 samples.

Results

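The genes described here are 44 genes that act in mitosis and at the G2/M boundary, from the kinase CDK1 and its cyclins to spindle motors, kinetochore proteins and the proteins that divide the cell. They were taken by symbol from a table of 60664 gene entries, with the symbol looked up from each Ensembl identifier, and all 44 were among the 19516 genes that passed the filter on low counts and were tested. RNA was measured by sequencing in the HER2-amplified (ERBB2) human breast adenocarcinoma line KPL4, and the study asked what estrogen receptor β (ERβ, encoded by ESR2) does to its expression. There were 5 groups of 3 libraries, all of KPL4 origin. In the first pair, cells without ERβ (knockout) were set against wild-type cells with their own ERβ (control). The add-back line was made by transfecting ERβ into the knockout line, so 3 of the groups carry the knockout together with ERβ supplied again. Untreated cells were maintained in medium with fetal bovine serum. The other two groups were add-back cells depleted of hormone for 72 h (medium free of phenol red, with 1% serum stripped by charcoal) and then given 200 nM of the ERβ agonist LY500307 or DMSO (vehicle) in that medium for 24 h. The labels state neither whether the knockout or the add-back line was 1 clone or a pool, nor what drives the transfected ERβ, nor whether the 3 libraries of a group came from separate cultures, so p-values measure the spread between these libraries.

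Most genes of mitosis are transcribed late in the cell cycle, in G2, and their RNA is scarce in G1. In dividing cells their promoters are driven by the MuvB complex together with B-MYB and FOXM1, and in resting cells the same MuvB core joins E2F4 or E2F5 and a retinoblastoma-like protein in the DREAM complex, which silences them. Promoter elements known for this control are the cell cycle genes homology region, with the letters TTTGAA or TTCGAA, which binds MuvB, and CCAAT boxes, which bind NF-Y. In breast cancer, several of these genes are used as markers of proliferation, MKI67 (Ki-67) among them.

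Promoter letters are shown for 4 of the genes because these moved in different ways: ASPM had the third largest fall in knockout cells, MKI67 was lower than in control cells in both untreated lines of knockout origin, CDC20 had the largest fall in vehicle-treated cells and KIF4A one of the largest rises there. Each sequence is the stretch upstream of the RefSeq gene start (GRCh38.p14) that no annotated exon covers, 5′ to 3′ on the gene's own strand. Capitals mark both forms of the homology region letters and the CCAAT letters, read on either strand, and in MKI67 the pair nearest to the start shares bases. ASPM lies on the minus strand (chr1:197146695-197146819), MKI67 on the minus strand (chr10:128126424-128126573), CDC20 on the plus strand (chr1:43358831-43358954) and KIF4A on the plus strand (chrX:70289980-70290089).
ASPM: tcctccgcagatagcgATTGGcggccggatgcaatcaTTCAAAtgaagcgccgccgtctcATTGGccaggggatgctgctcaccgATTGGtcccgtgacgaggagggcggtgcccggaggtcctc
MKI67: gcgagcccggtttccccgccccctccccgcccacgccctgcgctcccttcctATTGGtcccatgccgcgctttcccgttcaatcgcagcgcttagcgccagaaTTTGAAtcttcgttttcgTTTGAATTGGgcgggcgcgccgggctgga
CDC20: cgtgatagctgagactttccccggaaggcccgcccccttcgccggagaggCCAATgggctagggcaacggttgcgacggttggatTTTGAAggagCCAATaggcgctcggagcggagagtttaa
KIF4A: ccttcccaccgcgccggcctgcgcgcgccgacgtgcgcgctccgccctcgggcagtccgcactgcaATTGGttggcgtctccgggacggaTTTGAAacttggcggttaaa

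RefSeq windows of 300 bases (250 before the start and 50 after it) matched 38 of the 44 genes, with 48 windows in all. TTTGAA or TTCGAA, on either strand, was found in 33 of the 48 windows (68.8%), against 16.4% of the 35116 windows of all genes. CCAAT was in 37 of the 48 (77.1%), against 34.6% of all windows. CACGTG, the E-box letters, was in 6 of the 48 (12.5%), against 7.26%. Of the 24 matched genes called lower in knockout cells, 19 had TTTGAA or TTCGAA in a window, and of the other 14 it was 11. The letters were thus about as common among genes that fell as among genes that did not, and their presence is a description of sequence and not of binding.

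Totals per library ran between 12614074 and 19390378 expected counts, and the genes described here had between 141 (BORA) and 12353 (CENPF) counts in a library. Markers of luminal and HER2-amplified breast cancer cells (ERBB2, GRB7, EPCAM, CDH1, KRT8, KRT18 and KRT19) were all detected, at 10319 to 10800.7 CPM in sum with LY500307, 9987 to 10659.7 CPM with vehicle, 9050 to 9272 CPM in add-back cells, 8301 to 8617 CPM in knockout cells and 6757 to 6992 CPM in control cells. ERBB2 (HER2) set much of this sum, at 5280.4 CPM in knockout cells, against 3521 CPM in control cells. Summed markers of other cell types were low in every library: 0.324 to 1.70 CPM for 5 immune genes, 2.97 to 4.71 CPM for 3 endothelial genes in the untreated groups, 2.09 to 4.59 CPM for 4 fibroblast genes and at most 0.11 CPM for the erythroid pair, with HBB at 0 throughout. The endothelial sum was higher in the treated groups, at 10.9 to 12.2 CPM with LY500307 and 10.3 to 10.6 CPM with vehicle. ESR2 RNA was 43.9 ± 1.36 CPM with LY500307, 45.2 ± 3.24 CPM with vehicle, 32.8 ± 1.94 CPM in add-back cells, 4.41 ± 1.36 CPM in knockout cells and 5.76 ± 0.867 CPM in control cells (SD, n = 3). Knockout and control cells did not differ in ESR2 RNA at the threshold (edgeR adjusted p = 0.0796), so the counts check the add-back label and leave the knockout label unchecked. Levels below are TMM-scaled CPM (counts scaled to library size), a gene counts as called where edgeR's quasi-likelihood test gave an adjusted p (Benjamini-Hochberg, over all genes) under 0.05, and log2 fold changes are given ± SE.

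Per length of transcript, in TPM (length-scaled shares of a library), the levels of the 44 genes spread widely in control cells. CCNB1, cyclin B1, was highest at 220 ± 6.13 TPM and CDC25C, a phosphatase that activates CDK1, lowest at 10.5 ± 0.0969 TPM (SD, n = 3), with a median of 65.2 TPM over the 44. Between groups the genes moved far less than they differed from each other. The ratio of the highest to the lowest group mean had a median of 1.22, with KIF20A, a kinesin of the central spindle, at 1.06 and BORA at 2.42. Control cells were the highest group for 19 genes and vehicle-treated cells for 16, and knockout cells were the lowest group for 23. The mean log2 CPM over the 44 genes was 6.72 ± 0.0201 with LY500307, 6.74 ± 0.0209 with vehicle, 6.66 ± 0.026 in add-back cells, 6.57 ± 0.0124 in knockout cells and 6.75 ± 0.0272 in control cells (SD over 3 libraries, no test).

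**Figure D1:**
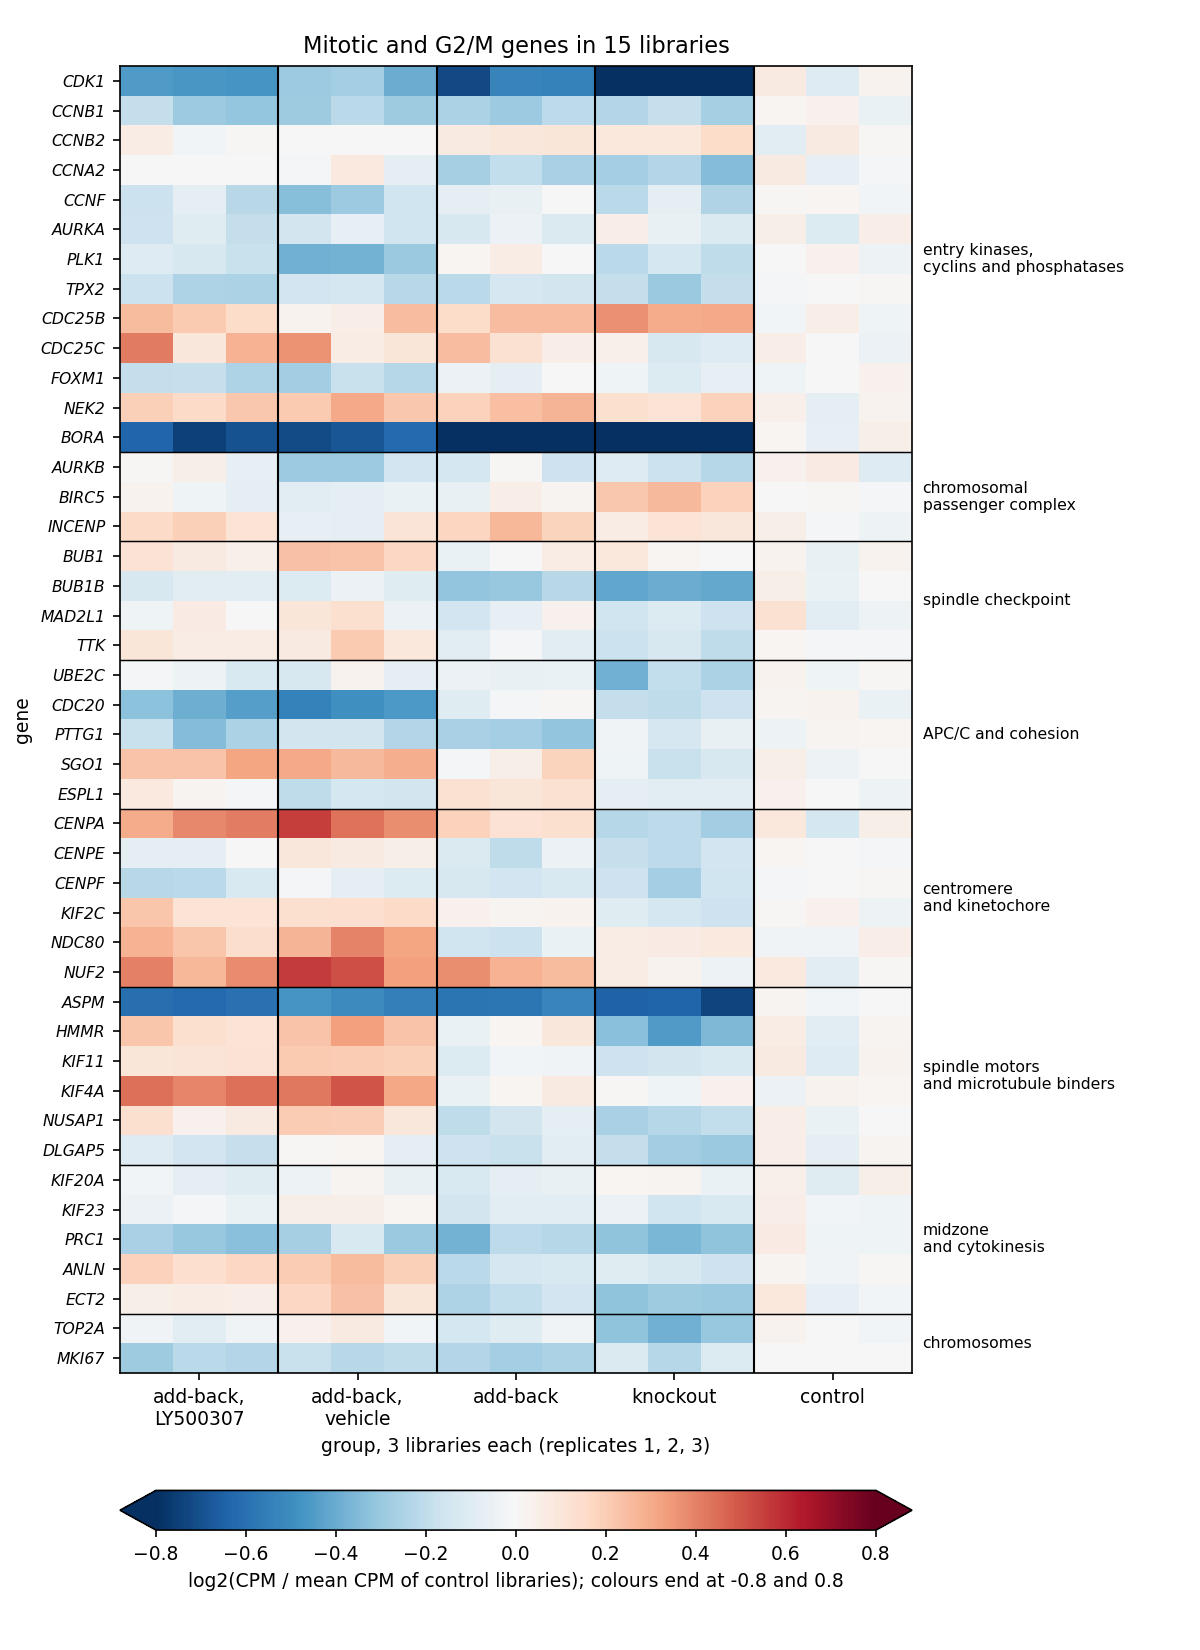
Heat map of the 44 genes (rows, grouped by role) in the 15 libraries (columns, 3 per group), as log2 of CPM over the mean CPM of the 3 control libraries. BORA, CDK1 and ASPM are blue in all 12 libraries of knockout origin, and the vehicle and LY500307 columns differ from the untreated add-back columns in many rows.

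Loss of ERβ was the first comparison, knockout against control. In knockout cells 27 of the 44 genes fell and 4 rose, and 13 were not called, with a median log2 fold change of -0.16 over the 44. Of all 19516 genes tested, 22.6% were called lower and 23.4% higher, with a median of -0.0049, so the share of mitotic genes called lower (61.4%) stood above the background and the share called higher (9.09%) below it. The luminal and HER2 markers moved in the same comparison, 3 of 7 higher and 4 lower, and their part in the mitotic values was not tested. Most falls were small. BORA, CDK1 and ASPM stood apart from the rest, and the remaining falls lay between log2 fold changes of -0.11 (KIF23) and -0.41 (BUB1B). In RNA from a whole culture, fewer cells in G2 or mitosis and less RNA in each such cell cannot be told apart.

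Among the 13 kinases, cyclins, phosphatases and regulators of mitotic entry, 7 fell and 3 rose. CDK1, the kinase that with cyclin B starts mitosis, was at 93.8, 101 and 92.5 CPM in knockout libraries, against 187, 166 and 181 CPM in control libraries. Every knockout library lay well below every control library (log2 fold change of -0.89 ± 0.054, edgeR adjusted p = 1.19e-10), so CDK1 RNA was 46.1% lower. Its partner CCNB1 had 188, 195 and 185 CPM in knockout cells, against 224, 227 and 213 CPM in control cells. The groups did not overlap, and the fall was smaller than that of CDK1 (log2 fold change of -0.23 ± 0.04, edgeR adjusted p = 0.000111). CCNA2, cyclin A, fell likewise (log2 fold change of -0.28 ± 0.046, edgeR adjusted p = 4.59e-05), whereas CCNB2, cyclin B2, rose slightly (log2 fold change of 0.10 ± 0.041, edgeR adjusted p = 0.0444). PLK1, the polo-like kinase of centrosome maturation and spindle assembly, measured 79, 83 and 79.5 CPM in knockout libraries, against 91.7, 93.8 and 89.2 CPM in control libraries. All 3 knockout values were below all 3 control values (log2 fold change of -0.19 ± 0.04, edgeR adjusted p = 0.000727).

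AURKA, the kinase that activates PLK1 at the centrosome, had 92.4, 85.5 and 82.2 CPM in knockout cells, against 92.2, 82.6 and 92.4 CPM in control cells. The libraries overlapped, and the difference was not called (log2 fold change of -0.04 ± 0.052, edgeR adjusted p = 0.568). FOXM1, the transcription factor that drives late cell cycle genes, gave 195, 185 and 191 CPM in knockout cells, against 195, 199 and 205 CPM in control cells. Each knockout value was below the lowest control value (195.3 CPM), the highest of them only just (194.7 CPM). The gene was not called (log2 fold change of -0.069 ± 0.036, edgeR adjusted p = 0.128). The genes that rose in this class were CCNB2, CDC25B and NEK2. CDC25B, a phosphatase that removes the inhibitory phosphates from CDK1, was at 81.2, 77.5 and 77.6 CPM in knockout libraries, against 62, 65.3 and 61.5 CPM in control libraries, with no overlap (log2 fold change of 0.32 ± 0.054, edgeR adjusted p = 6.24e-05). NEK2, a kinase that separates the centrosomes, measured 86.1, 84.9 and 89.4 CPM in knockout libraries, against 80.9, 74.7 and 80.4 CPM in control libraries, again without overlap (log2 fold change of 0.14 ± 0.043, edgeR adjusted p = 0.0109).

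BORA, the cofactor through which Aurora A switches PLK1 on, showed the largest difference of the 44. It had 11.3, 10.7 and 11.9 CPM in knockout libraries, against 27.7, 26.1 and 28.4 CPM in control libraries, so each knockout library lay far below every control library (log2 fold change of -1.27 ± 0.066, edgeR adjusted p = 1.02e-11). BORA lies on chromosome 13 (GRCh38, 72727749 to 72756198, plus strand), and its neighbours moved with it. Of the 20 tested genes nearest to it, 10 on each side between 52600042 and 75859870, 16 were called lower in the knockout and 0 higher. Their median log2 fold change was -1.01, and 4 fell further than BORA. KLF5, a transcription factor gene of epithelial cells, was at 26.2 ± 1.5 CPM in knockout cells, against 81.7 ± 7.82 CPM in control cells, and MZT1, a subunit of the gamma-tubulin complexes, at 12.9 ± 0.441 CPM against 27.9 ± 2.44 CPM (SD, n = 3 each). On the whole of chromosome 13, 66.7% of 324 tested genes were called lower and 4.63% higher. The next highest share of lower genes on a chromosome was 36.7%, on chromosome 2. BORA is the only one of the 44 genes on chromosome 13. It also overlaps DIS3, an exosome nuclease gene on the opposite strand with a log2 fold change of -1.06 ± 0.06, and whether the authors' counting used strand is not given in the sources used here. The part of the chromosome in the fall of BORA was not tested.

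**Figure D2:**
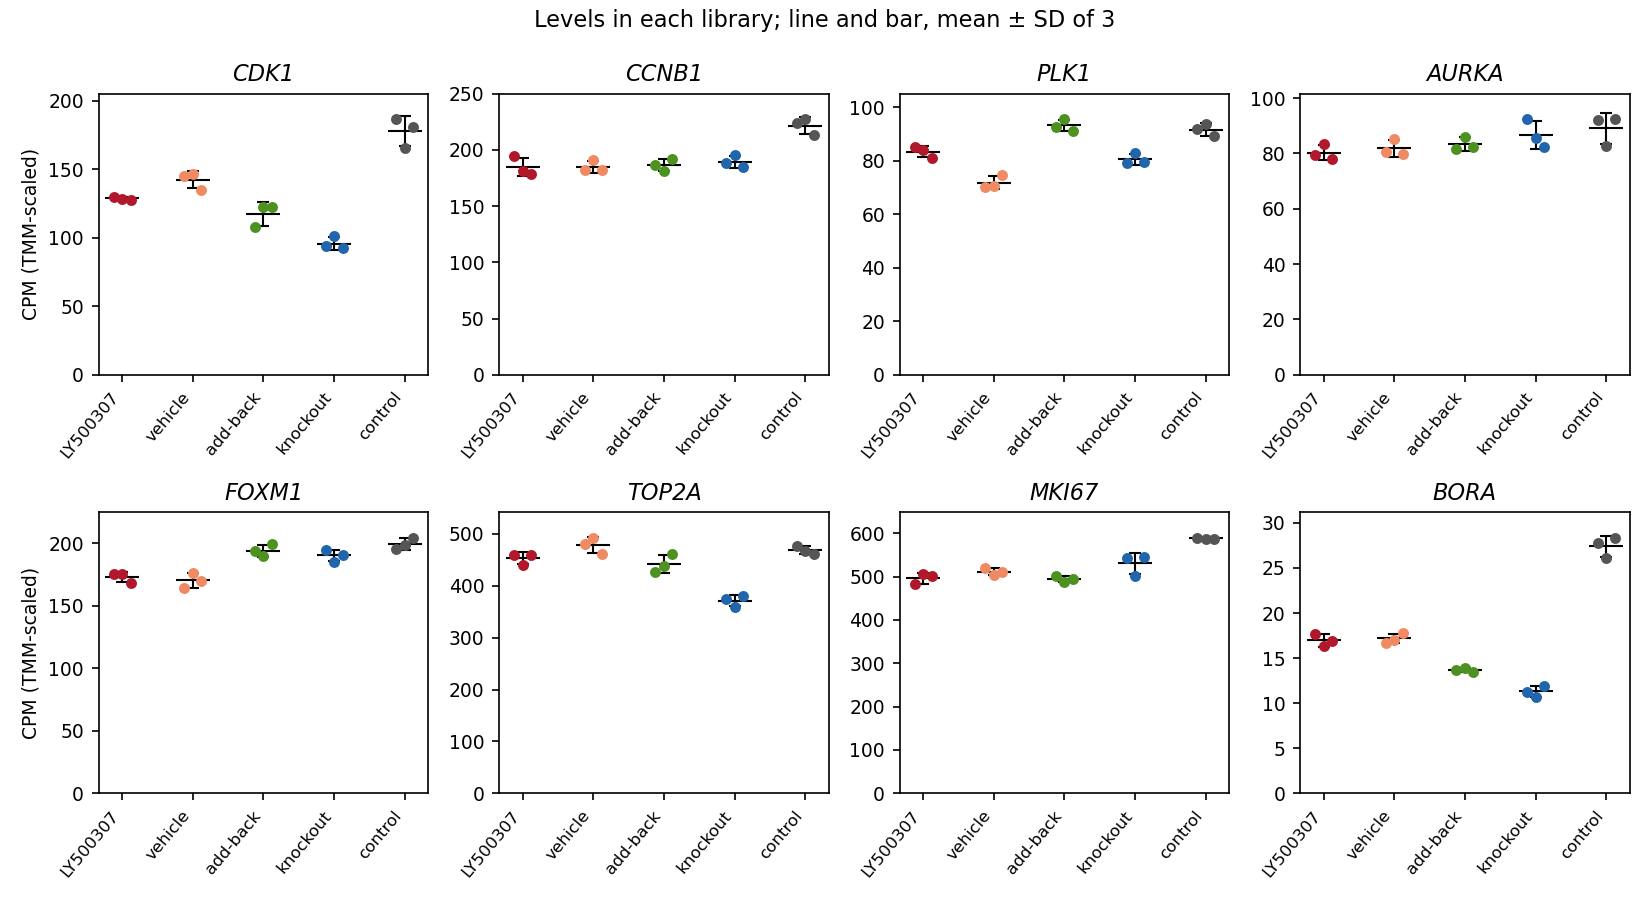
CPM of 8 genes in each of the 15 libraries (points), with the mean and SD of the 3 libraries of a group (line and bar) and axes that start at 0. CDK1 and BORA were lowest in knockout libraries and highest in control libraries, TOP2A was lowest in knockout libraries, and the groups of AURKA lay close together.

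Of the 3 genes of the chromosomal passenger complex, which corrects wrong attachments at the centromere, 1 rose, 1 fell and 1 was not called. BIRC5 (survivin) had 221, 228 and 216 CPM in knockout libraries, against 190.1, 191 and 189 CPM in control libraries. Its rise was clear of the spread within both groups (log2 fold change of 0.22 ± 0.037, edgeR adjusted p = 6.35e-05). AURKB, the kinase of that complex, fell (log2 fold change of -0.17 ± 0.061, edgeR adjusted p = 0.0309), and INCENP, its scaffold, was not called (log2 fold change of 0.088 ± 0.051, edgeR adjusted p = 0.171) and turned to a lower call with offsets for GC content and transcript length, which remove each library's trend on both (-0.22, edgeR adjusted p = 0.000293). In the spindle checkpoint, which holds anaphase back until all chromosomes are attached, 2 of 4 genes fell, BUB1B and TTK. BUB1B, which encodes the checkpoint protein BubR1, was at 145, 147 and 146 CPM in knockout libraries, against 200.3, 187 and 194 CPM in control libraries. The knockout values lay close together and below all control values (log2 fold change of -0.41 ± 0.036, edgeR adjusted p = 2.46e-08). MAD2L1 (MAD2) narrowly missed the threshold (log2 fold change of -0.14 ± 0.06, edgeR adjusted p = 0.0587), and BUB1 was close to equal (log2 fold change of 0.032 ± 0.041, edgeR adjusted p = 0.561).

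Spindle motors and microtubule binders fell in 5 of 6 cases. ASPM, a protein of the spindle poles, had 308, 308 and 289 CPM in knockout libraries, against 488, 474 and 480.3 CPM in control libraries. No knockout library came near the control range (log2 fold change of -0.67 ± 0.032, edgeR adjusted p = 3.72e-12), which is 37.2% lower. HMMR, a microtubule-binding protein of spindle assembly, measured 36.4, 33.6 and 35.9 CPM in knockout libraries, against 47.9, 43.4 and 46.8 CPM in control libraries, also with a gap between the groups (log2 fold change of -0.38 ± 0.057, edgeR adjusted p = 1.74e-05). KIF11, NUSAP1 and DLGAP5 fell by less, and KIF4A, a chromosome-bound kinesin, was the exception with 103, 100.5 and 105 CPM in knockout libraries, against 99.5, 105 and 104 CPM in control libraries (log2 fold change of 0.0041 ± 0.048, edgeR adjusted p = 0.957). At the centromere and kinetochore, CENPA, CENPE, CENPF and KIF2C fell and NDC80 and NUF2 were not called. Of the genes of the midzone and cytokinesis, 4 of 5 fell, led by PRC1, which bundles midzone microtubules (log2 fold change of -0.33 ± 0.05, edgeR adjusted p = 1.89e-05), and ECT2, the exchange factor that turns on RhoA at the cleavage furrow (log2 fold change of -0.30 ± 0.04, edgeR adjusted p = 4.29e-06).

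In the group around the anaphase-promoting complex (APC/C) and sister cohesion, its activator CDC20 (log2 fold change of -0.19 ± 0.041, edgeR adjusted p = 0.000873) and its ubiquitin-conjugating enzyme UBE2C (log2 fold change of -0.28 ± 0.054, edgeR adjusted p = 0.000267) fell, and PTTG1 (securin), ESPL1 (separase) and SGO1 (shugoshin) were not called. TOP2A, the topoisomerase that untangles sister chromatids, was at 375, 359.6 and 380.3 CPM in knockout libraries, against 477, 468 and 462 CPM in control libraries. All knockout values were lower (log2 fold change of -0.34 ± 0.035, edgeR adjusted p = 1.97e-07). MKI67, which coats mitotic chromosomes, gave 544, 503 and 546 CPM in knockout libraries, against 590.2, 587 and 588 CPM in control libraries, lower in each library and by a smaller step (log2 fold change of -0.15 ± 0.032, edgeR adjusted p = 0.000685). GC content moved with this comparison: across the 44 genes the log2 fold change had a Pearson correlation of 0.38 with the GC content of the transcripts, against 0.30 over 19089 genes. With the GC content and length offsets, 25 genes were lower and 6 higher, against 22.7% and 19.9% of all genes, and 12 of the 44 calls changed. CDC25B was then no longer called (log2 fold change 0.085, edgeR adjusted p = 0.153), and TTK, CENPE, KIF11, KIF23 and ANLN lost their lower calls (edgeR adjusted p = 0.409 to 0.777). FOXM1 (-0.16, edgeR adjusted p = 0.00045), ESPL1 (-0.25, 9.45e-06) and INCENP were called lower with the offsets, and BUB1 (0.12, edgeR adjusted p = 0.0126), NDC80 (0.21, 0.00304) and NUF2 (0.18, 0.0195) higher. By role, 2 of 5 midzone and cytokinesis genes, 4 of 6 motors and microtubule binders and 1 of 4 checkpoint genes were then lower, and of the 6 centromere and kinetochore genes 3 were lower and 2 higher.

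**Figure D3:**
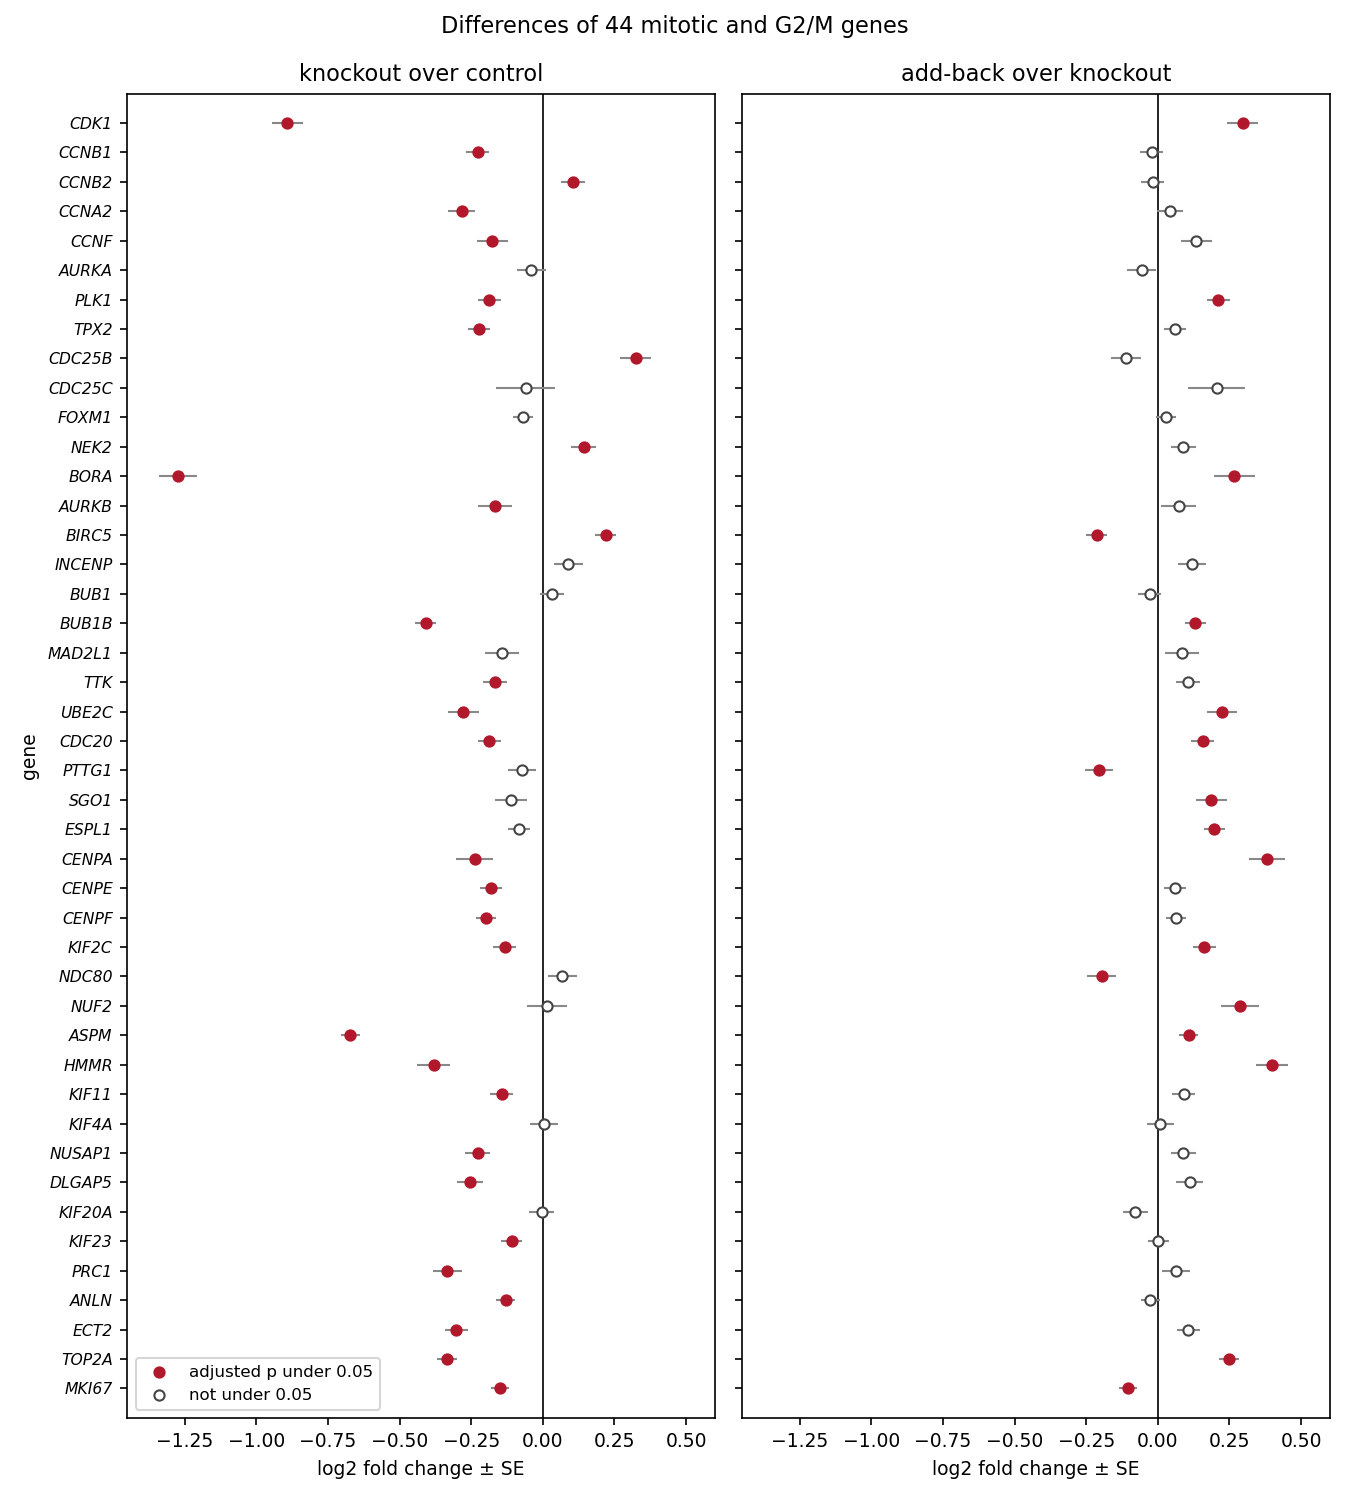
Log2 fold change ± SE of each of the 44 genes for knockout over control (left) and add-back over knockout (right), with filled points for genes called at an adjusted p under 0.05. On the left 27 genes are called lower and 4 higher, on the right 14 higher and 4 lower, and both panels share the knockout libraries.

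Return of ERβ was the second comparison, add-back against knockout. Here 14 of the 44 genes rose and 4 fell, and 26 were not called, with a median log2 fold change of 0.089. Over all genes tested 10.4% were called higher and 9.19% lower, with a median of -0.007, so the share of mitotic genes called higher (31.8%) was above the background while the share called lower (9.09%) was near it. Of the 14, 11 were genes called lower in knockout cells than in control cells, as were 27 of the 44. The share of all genes tested with both calls is not given here. Since both comparisons use the same knockout libraries, a low or high knockout value moves a gene in opposite directions in them.

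HMMR rose most, with 44.3, 46.5 and 48.9 CPM in add-back libraries, against 35.3 ± 1.51 CPM in knockout libraries (SD, n = 3). All add-back values exceeded all knockout values (log2 fold change of 0.40 ± 0.056, edgeR adjusted p = 4.06e-05). CENPA, the histone H3 variant that marks the centromere, was at 39.2, 37.3 and 37.7 CPM in add-back libraries, against 29.5, 29.8 and 28.5 CPM in knockout libraries. The gap between the groups was wider than the spread within either (log2 fold change of 0.38 ± 0.062, edgeR adjusted p = 0.000184). CDK1 reached 108, 123 and 122 CPM in add-back libraries, against 95.8 ± 4.56 CPM in knockout libraries, an increase of 22.8% (log2 fold change of 0.30 ± 0.055, edgeR adjusted p = 0.000666). NUF2, an arm of the kinetochore complex that grips microtubules, measured 31, 29.1 and 28.6 CPM in add-back libraries, against 25, 24.4 and 23.3 CPM in knockout libraries (log2 fold change of 0.29 ± 0.067, edgeR adjusted p = 0.00476). It was among the genes that had not differed between knockout and control cells.

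BORA was at 13.7, 13.9 and 13.4 CPM in add-back libraries, against 11.3 ± 0.607 CPM in knockout libraries, so all add-back values were higher (log2 fold change of 0.27 ± 0.071, edgeR adjusted p = 0.014). Of its 20 neighbours 8 rose and 0 fell in this comparison, with a median log2 fold change of 0.21. TOP2A measured 426, 439 and 460.4 CPM in add-back libraries, against 372 ± 10.7 CPM in knockout libraries, with no overlap (log2 fold change of 0.25 ± 0.035, edgeR adjusted p = 3.69e-05). PLK1 had 92.7, 95.5 and 91.2 CPM in add-back libraries, against 80.5 ± 2.15 CPM in knockout libraries (log2 fold change of 0.21 ± 0.04, edgeR adjusted p = 0.000718). Those 3 libraries also lay above the knockout range. The remaining genes that rose were UBE2C, ESPL1, SGO1, KIF2C, CDC20, BUB1B and ASPM, with log2 fold changes between 0.11 (ASPM) and 0.22 (UBE2C). By role, 4 of the 5 genes of the APC/C and cohesion group rose and the fifth fell, and 0 of the 5 midzone and cytokinesis genes were called.

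The genes that fell were BIRC5, PTTG1, NDC80 and MKI67. BIRC5 was at 183, 197 and 193 CPM in add-back libraries, against 222 ± 5.74 CPM in knockout libraries (log2 fold change of -0.21 ± 0.037, edgeR adjusted p = 0.000312), lower in every library and close to the control mean of 190.3 CPM. PTTG1 had 48.4, 48 and 46.5 CPM in add-back libraries, against 56.7, 52.6 and 55.5 CPM in knockout libraries (log2 fold change of -0.21 ± 0.049, edgeR adjusted p = 0.00521). NDC80, which pairs with NUF2 in the kinetochore complex, gave 39.6, 39.2 and 42.7 CPM in add-back libraries, against 46.1, 46.4 and 46.7 CPM in knockout libraries (log2 fold change of -0.20 ± 0.051, edgeR adjusted p = 0.01). NDC80 and NUF2, whose proteins form a dimer, were thus called in opposite directions. MKI67 had 501, 488 and 494 CPM in add-back libraries, against 531 ± 24.4 CPM in knockout libraries (log2 fold change of -0.10 ± 0.032, edgeR adjusted p = 0.0269), and this call was lost with RLE factors, with no filter, in the 6 libraries alone, with the GC content and length offsets and without most single libraries. CCNB1 (186, 181 and 192 CPM in add-back libraries), AURKA (81.5, 86.1 and 82.3 CPM) and FOXM1 (194, 189.7 and 199 CPM) overlapped their knockout libraries and were not called. With the offsets 16 genes were higher and 3 lower, against 12% and 10.4% of all genes.

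Add-back cells were also set against control cells, which asks what still differed once ERβ was supplied. Of the 44 genes 19 were lower and 5 higher, with a median log2 fold change of -0.073, against 22.7% lower and 23.2% higher over all genes with a median of -0.021. BORA (add-back 13.6 ± 0.226 CPM, control 27.4 ± 1.14 CPM) and CDK1 (add-back 117 ± 8.53 CPM, control 178 ± 10.9 CPM) had the largest deficits of the 44 against control cells. The log2 fold change was -1.01 ± 0.063 (edgeR adjusted p = 2.54e-10) for BORA and -0.60 ± 0.053 (edgeR adjusted p = 3.4e-08) for CDK1. Of the 20 neighbours of BORA, 15 were lower and 0 higher here (median -0.74), as were 66% and 3.4% of 324 chromosome 13 genes. The part of the chromosome in the deficit of BORA was not tested. ASPM was at 320.0, 321 and 334 CPM in add-back libraries, against 481 ± 7.11 CPM in control libraries (log2 fold change of -0.56 ± 0.032, edgeR adjusted p = 7.62e-11), so most of its deficit in knockout cells was still there. PTTG1 averaged 47.6 ± 0.989 CPM in add-back cells and 56.2, 58.7 and 58.5 CPM in the 3 control libraries (log2 fold change of -0.28 ± 0.049, edgeR adjusted p = 0.000103). BUB1B had 155, 157 and 166 CPM in add-back libraries, against 194 ± 6.86 CPM in control libraries (log2 fold change of -0.28 ± 0.036, edgeR adjusted p = 3.7e-06).

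Set side by side, the 3 comparisons of untreated cells divided the genes into classes. CDK1, BUB1B, TOP2A, ASPM and BORA were lower in knockout than in control cells, higher in add-back than in knockout cells, and still lower in add-back than in control cells. For TOP2A the last call was marginal (log2 fold change of -0.086 ± 0.035, edgeR adjusted p = 0.0492) and its sign turned with the GC content and length offsets (0.0068). PLK1, HMMR, CENPA, KIF2C, UBE2C and CDC20 were lower in knockout cells and higher in add-back cells, and were not called against control cells once ERβ was supplied. With the GC content and length offsets, however, 4 of these 6 were called against control cells: PLK1 (-0.091, edgeR adjusted p = 0.0312) and CDC20 (-0.15, 0.0028) lower, and HMMR (0.14, 0.0427) and CENPA (0.21, 0.00391) higher. A further 11 genes fell in knockout cells, were not called between add-back and knockout cells and were lower in add-back than in control cells. Of these, CCNB1, CCNA2, TPX2, PRC1 and ECT2 kept the last call with the offsets, and CENPE, CENPF, KIF23, NUSAP1, DLGAP5 and ANLN lost it (edgeR adjusted p = 0.0521 to 0.767). MKI67 was called lower in all 3 comparisons, and BIRC5 was the one gene higher in knockout cells and lower in add-back cells. The shares of all genes tested that fall into these classes are not given here.

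The genes higher in add-back than in control cells were NUF2, NEK2, CDC25B, INCENP and ESPL1. NUF2 averaged 29.5 ± 1.29 CPM in add-back cells, against 25.3, 22.5 and 24.1 CPM in control libraries (log2 fold change of 0.30 ± 0.067, edgeR adjusted p = 0.0011). NEK2 was at 89.5, 92.9 and 94.8 CPM in add-back libraries, against 78.7 ± 3.43 CPM in control libraries (log2 fold change of 0.23 ± 0.043, edgeR adjusted p = 0.000185), and CDC25B at 69.6, 74.5 and 74.6 CPM in add-back libraries, against 62.9 ± 2.05 CPM in control libraries (log2 fold change of 0.21 ± 0.054, edgeR adjusted p = 0.00312). INCENP (log2 fold change of 0.21 ± 0.05, edgeR adjusted p = 0.00201) and ESPL1 (log2 fold change of 0.11 ± 0.037, edgeR adjusted p = 0.0159) were higher as well. All add-back libraries of NUF2, NEK2 and CDC25B were above the control range. With the GC content and length offsets the call of CDC25B was lost (log2 fold change 0.0062, edgeR adjusted p = 0.929), INCENP (-0.074, 0.172) and ESPL1 (-0.02, 0.69) lost theirs and turned sign, those of NUF2 and NEK2 were kept, and 16 genes were lower and 6 higher in all, against 22.7% and 19.6% of all genes. The 10 genes with a GC content of at least 50% held 3 of the 5 higher calls and 0 of the 19 lower calls without the offsets. Of all genes tested with at least 50% GC, 37.1% were called higher and 12.3% lower. Under 50% GC these shares were 13.1% and 30.7%, so direction ran with GC content over all genes too.

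Vehicle-treated add-back cells differed from untreated add-back cells in medium, serum and DMSO together, and may have differed in time in culture, which cannot be told apart here. ESR2 RNA was also called higher with vehicle (log2 fold change of 0.46, edgeR adjusted p = 0.000117), and its part in the mitotic values was not tested. Of the 44 genes 21 were higher with vehicle and 7 lower, with a median log2 fold change of 0.11, and all genes had 26.4% called higher and 21.6% lower with a median of 0.013. The endothelial markers VWF (8.74 ± 0.349 CPM with vehicle, 2.81 ± 0.196 CPM in untreated add-back cells) and CDH5 (1.46 ± 0.238 CPM with vehicle, 0.414 ± 0.155 CPM untreated) were called higher too, as were 3 of the 7 luminal and HER2 markers, with 1 lower, and the part of such shifts in the mitotic genes was not tested. Among the higher genes were 5 of 6 centromere and kinetochore genes, 5 of 6 motors and microtubule binders and 3 of 5 midzone and cytokinesis genes. The lower genes were CDC20, PLK1, ESPL1, CCNF, INCENP, FOXM1 and AURKB. Direction and GC content were tied. All 21 higher genes were among the 34 with transcripts under 50% GC, and all 7 lower genes among the 10 with at least 50% GC. The split was chosen after the values were seen. Of all genes tested under 50% GC, 36.9% were called higher and 9.25% lower, and at 50% GC or more 13.7% and 38.1%. Across the 44 genes the Pearson correlation of log2 fold change with GC content was -0.78, against -0.35 over 19089 genes.

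CDC20, which activates the APC/C at anaphase, was at 87.2, 90.2 and 92.2 CPM in vehicle libraries, against 119, 126 and 128 CPM in untreated add-back libraries. No vehicle library came near the untreated range (log2 fold change of -0.47 ± 0.041, edgeR adjusted p = 1.84e-08). NDC80 had 53.5, 58.2 and 55 CPM in vehicle libraries, against 40.5 ± 1.89 CPM in untreated add-back libraries (log2 fold change of 0.46 ± 0.05, edgeR adjusted p = 3.14e-07). Its rise was about as large as the fall of CDC20 without the GC content and length offsets, and smaller with them. KIF4A measured 137, 146 and 127 CPM in vehicle libraries, against 99.1, 104 and 108 CPM in untreated add-back libraries (log2 fold change of 0.40 ± 0.046, edgeR adjusted p = 6.96e-07). PLK1 gave 70.1, 70.5 and 74.5 CPM in vehicle libraries, against 93.1 ± 2.19 CPM in untreated add-back libraries, so all 3 were lower (log2 fold change of -0.38 ± 0.04, edgeR adjusted p = 1.97e-07).

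ANLN (anillin), which scaffolds the contractile ring, had 407, 421 and 404 CPM in vehicle libraries, against 305, 322 and 326 CPM in untreated add-back libraries (log2 fold change of 0.37 ± 0.032, edgeR adjusted p = 1.72e-08). ECT2 was at 366, 383 and 349 CPM in vehicle libraries, against 275, 284 and 293 CPM in untreated add-back libraries (log2 fold change of 0.37 ± 0.04, edgeR adjusted p = 3.32e-07). Neither gene's groups overlapped. ESPL1, the protease that cuts cohesin at anaphase, fell to 77.8, 81.1 and 80.7 CPM in vehicle libraries, against 97.2, 95.7 and 97.3 CPM in untreated add-back libraries (log2 fold change of -0.28 ± 0.037, edgeR adjusted p = 3.82e-06). FOXM1 fell as well, with 164, 176 and 170.2 CPM in vehicle libraries, against 194 ± 4.76 CPM in untreated add-back libraries (log2 fold change of -0.19 ± 0.036, edgeR adjusted p = 0.000212). CDK1 rose to 145, 147 and 135 CPM in vehicle libraries, against 117 ± 8.53 CPM in untreated add-back libraries (log2 fold change of 0.28 ± 0.054, edgeR adjusted p = 0.000246), and BORA to 16.7, 17 and 17.8 CPM, against 13.6 ± 0.226 CPM (log2 fold change of 0.33 ± 0.066, edgeR adjusted p = 0.000332). TOP2A, at 481, 493 and 462 CPM with vehicle, was called higher by a small step (log2 fold change of 0.12 ± 0.035, edgeR adjusted p = 0.00963). CCNB1 (182, 191 and 182 CPM with vehicle), AURKA (80.6, 85.2 and 79.7 CPM) and MKI67 (519, 503 and 512 CPM) were not called.

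The offsets for GC content and transcript length changed this comparison more than any other. With them 6 genes were higher and 13 lower, with a median log2 fold change of -0.041, against 20.3% higher and 23.2% lower over all genes with a median of -0.039. The list's median thus changed sign and lay at that of all genes, and the share of higher calls (13.6%) was below the background. By role, 2 of 6 centromere and kinetochore genes, 2 of 6 motors and microtubule binders and 2 of 5 midzone and cytokinesis genes were still higher, with 1, 1 and 0 lower. NDC80 (0.25, edgeR adjusted p = 0.000408), KIF4A (0.24, 9.82e-05), ANLN (0.15, 0.000145) and ECT2 (0.16, 0.000301) were still called higher, at smaller log2 fold changes. CDC20 (-0.37, edgeR adjusted p = 7.07e-08), PLK1 (-0.28, 7.84e-07), ESPL1 (-0.19, 0.000219) and FOXM1 (-0.20, 5.36e-05) were still called lower. CCNF (-0.10, edgeR adjusted p = 0.0943), AURKB (-0.077, 0.288) and INCENP lost their lower calls. CDK1 (0.10, edgeR adjusted p = 0.0942) and BORA (0.12, 0.202) lost their calls. TOP2A turned to a lower call (-0.089, edgeR adjusted p = 0.0263), and CCNB1 (-0.18, 0.000681) and AURKA (-0.19, 0.00155) were called lower. In all, 26 of the 44 calls changed. How far GC content in library preparation and how far the culture change set these values was not tested.

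**Figure D4:**
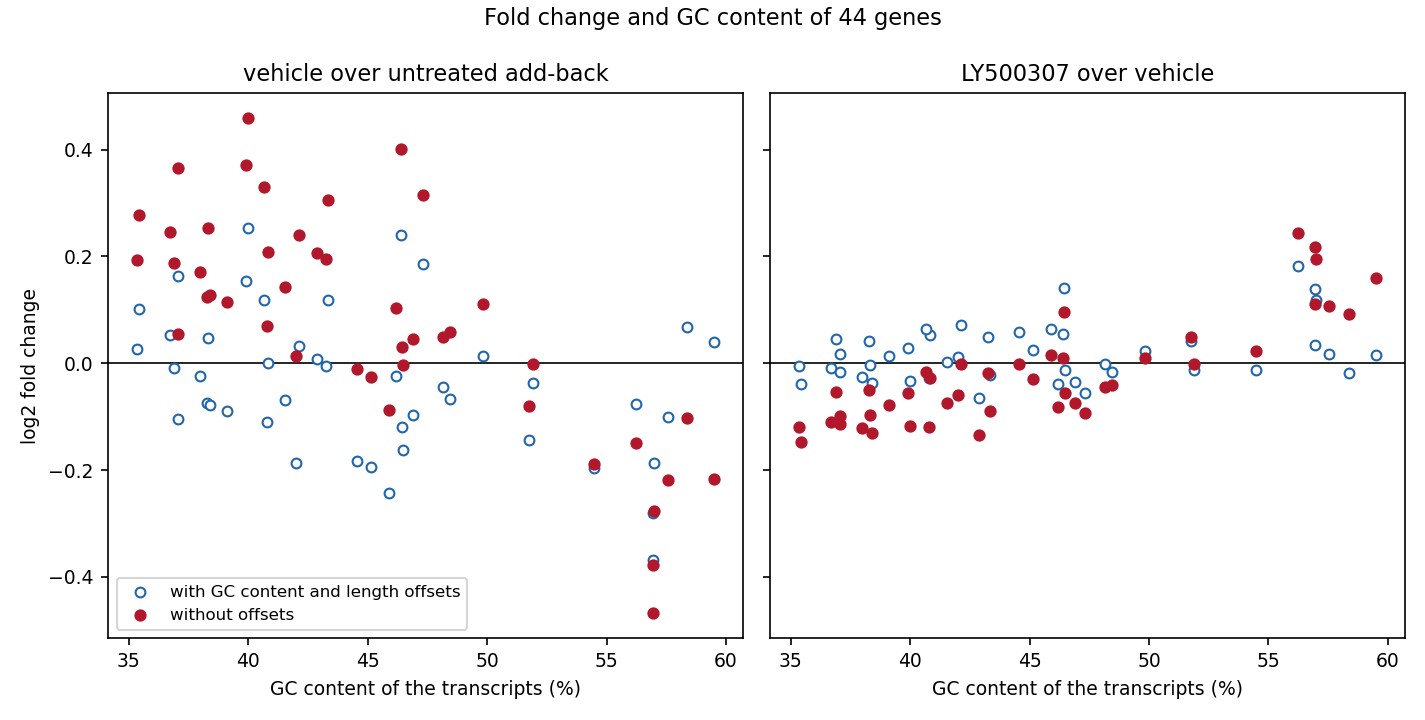
Log2 fold change of the 44 genes against the GC content of their transcripts, for vehicle over untreated add-back (left) and LY500307 over vehicle (right), without offsets (filled) and with the GC content and length offsets (open). Without offsets the points slope down on the left (Pearson correlation of -0.78, n = 44 genes) and up on the right (0.85). With offsets the correlations of the 44 genes are weaker but remain (-0.39 and 0.33), while over 19089 genes they are -0.00045 and -0.0088.

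The agonist comparison, LY500307 against vehicle in add-back cells, moved few of these genes. Of the 44 genes, 3 rose and 1 fell, and 40 were not called, with a median log2 fold change of -0.047. Over all genes 4.77% were called higher and 2.35% lower, so both shares of mitotic genes (6.82% and 2.27%) were near the background. AURKB was at 52.4, 53.8 and 49.8 CPM with LY500307, against 42.6, 42.5 and 46.9 CPM with vehicle, without overlap (log2 fold change of 0.24 ± 0.059, edgeR adjusted p = 0.018). PLK1 had 85.1, 83.9 and 81 CPM with LY500307, against 71.7 ± 2.44 CPM with vehicle (log2 fold change of 0.22 ± 0.04, edgeR adjusted p = 0.00391), and its mean with LY500307 lay below the 93.1 ± 2.19 CPM of untreated add-back cells. ESPL1 measured 94.6, 90.9 and 89 CPM with LY500307, against 79.9 ± 1.82 CPM with vehicle (log2 fold change of 0.20 ± 0.037, edgeR adjusted p = 0.0044). These 3 are genes that had been lower with vehicle than in untreated add-back cells. For AURKB that call was marginal (edgeR adjusted p = 0.0479), its libraries overlapped, and the offsets removed it (edgeR adjusted p = 0.288). Since both comparisons use the vehicle libraries, their values move the comparisons in opposite directions.

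CENPF, a large kinetochore-associated protein that accumulates in G2, was the gene called lower. It was at 593, 597 and 638 CPM with LY500307, against 685, 659.5 and 642 CPM with vehicle. The highest LY500307 library was just under the lowest vehicle library (log2 fold change of -0.12 ± 0.035, edgeR adjusted p = 0.0431). CDK1 had 129.8, 129 and 128 CPM with LY500307, against 142 ± 6.35 CPM with vehicle, and was not called (log2 fold change of -0.15 ± 0.053, edgeR adjusted p = 0.107). CCNB1 (194, 182 and 179 CPM), AURKA (79.4, 83.4 and 78.1 CPM), FOXM1 (175, 175 and 169 CPM), TOP2A (459.7, 440.1 and 459.9 CPM), MKI67 (482, 506 and 501 CPM) and BORA (17.7, 16.3 and 16.9 CPM) were not called either, with log2 fold changes between -0.078 (TOP2A) and 0.023 (FOXM1). GC content ran with this comparison too (Pearson 0.85 over the 44 genes, 0.31 over 19089 genes). With the offsets PLK1 was the only one of the 44 called (0.14, edgeR adjusted p = 0.0377), AURKB was at 0.18 (0.123) and ESPL1 at 0.12 (0.12), and 0.849% of all genes were called higher and 0.576% lower.

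Other genes of the cell cycle were counted beside these. Of 67 further mitotic genes, 28 fell and 7 rose in knockout cells (median -0.079), with HJURP, the chaperone of CENPA, at 72.7 ± 2.05 CPM in knockout cells, against 113 ± 5.9 CPM in control cells (log2 fold change -0.64 ± 0.044, edgeR adjusted p = 6.64e-10), and SGO2, a protector of centromeric cohesion, at 66.6 ± 2.49 CPM, against 97.8 ± 1.27 CPM (-0.55 ± 0.044, edgeR adjusted p = 4.79e-09). HJURP and SGO2 both lie on chromosome 2, where 36.7% of 1270 tested genes were called lower in knockout cells. The part of the chromosome in their falls was not tested. PKMYT1, a kinase that inhibits CDK1, was higher (0.84 ± 0.13, edgeR adjusted p = 3.68e-05), but not with the offsets (0.14, edgeR adjusted p = 0.213). In add-back against knockout cells 16 of the 67 rose and 5 fell, in add-back against control cells 8 were higher and 20 lower, in vehicle-treated against untreated add-back cells 30 and 10, and with LY500307 against vehicle 4 and 1. With the offsets the 67 had 13 higher and 24 lower in knockout against control cells, 12 and 20 with vehicle against untreated add-back, where the balance thus turned, and 0 and 0 with LY500307. The condensin and cohesin genes, 17 in all, had 13 lower and 0 higher in the knockout, led by PDS5B, a cohesin regulator (-0.61 ± 0.036, edgeR adjusted p = 8.24e-11), which like BORA lies on chromosome 13. Their counts of higher and lower genes were 4 and 0 for add-back against knockout, 0 and 11 for add-back against control, 6 and 4 for vehicle against untreated add-back and 1 and 2 for LY500307 against vehicle, and with the offsets the last pairs were 0 and 10 and 0 and 0. The 16 APC/C genes had 3 higher and 7 lower in knockout cells, 0 and 0 for add-back against knockout, 3 and 7 for add-back against control, 5 and 5 with vehicle and 2 and 0 with LY500307, and with the offsets 2 and 5 in knockout cells, 1 and 4 with vehicle and 0 and 0 with LY500307.

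Of 13 genes of the MuvB, DREAM and B-MYB group, which regulates mitotic transcription, 9 were lower and 0 higher in knockout cells, and 6 lower and 2 higher with the offsets. TFDP1, the partner of E2F proteins, was at 77 ± 4.53 CPM in knockout cells, against 148 ± 0.451 CPM in control cells (-0.94 ± 0.048, edgeR adjusted p = 8.83e-12). It lies on chromosome 13, as does RB1 (-0.47 ± 0.063, edgeR adjusted p = 4.41e-06). E2F5, the DREAM subunit, also fell (-0.73 ± 0.055, edgeR adjusted p = 2.79e-09), LIN9, of the MuvB core, fell by less (-0.32 ± 0.059, edgeR adjusted p = 0.000149), and MYBL2 (B-MYB) was not called (0.052 ± 0.052, edgeR adjusted p = 0.455). The higher and lower counts of the 13 were 4 and 1 for add-back against knockout, 2 and 6 for add-back against control, 3 and 4 for vehicle against untreated add-back (0 and 7 with the offsets) and 0 and 0 for LY500307 against vehicle. Of 12 CDK inhibitors and p53 target genes, 3 were higher and 5 lower in knockout cells, 5 and 1 for add-back against knockout, 4 and 1 for add-back against control, 5 and 4 with vehicle and 0 and 1 with LY500307. With the offsets these counts were 4 and 4 in knockout cells, 4 and 2 with vehicle and 0 and 0 with LY500307. CDKN1A (p21) was not called in knockout against control cells (0.28 ± 0.12, edgeR adjusted p = 0.0726).

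Genes of DNA replication followed another course. Of 45 S-phase and replication genes 16 were higher and 6 lower in knockout cells (median 0.069), and in add-back against knockout cells 24 were lower and 0 higher (median -0.18). MCM3, a subunit of the replicative helicase, was at 114 ± 1.08 CPM in add-back cells, against 166 ± 5.31 CPM in knockout cells (-0.54 ± 0.041, edgeR adjusted p = 1.58e-08). E2F1, which drives S-phase genes, had 35.6 ± 2.02 CPM in add-back cells, against 49.8 ± 2.06 CPM in knockout cells (-0.49 ± 0.053, edgeR adjusted p = 1.86e-06). In knockout against control cells CDT1, a replication licensing factor, was higher (1.17 ± 0.12, edgeR adjusted p = 2.56e-07, and 0.41 with the offsets), as was RRM2, a subunit of ribonucleotide reductase (0.17 ± 0.034, edgeR adjusted p = 0.000392). The counts of higher and lower genes with the offsets were 16 and 8 for knockout against control and 0 and 25 for add-back against knockout. For add-back against control 6 were higher and 21 lower, for vehicle against untreated add-back 4 and 19 (5 and 24 with the offsets), and for LY500307 against vehicle 8 and 0 (4 and 0 with the offsets). The mean log2 CPM over these genes was 5.97 ± 0.00593 with LY500307, 5.88 ± 0.00958 with vehicle, 6.02 ± 0.0344 in add-back cells, 6.19 ± 0.00761 in knockout cells and 6.10 ± 0.0132 in control cells (SD over 3 libraries, no test). Knockout libraries were thus the highest group for replication genes and the lowest for the 44 mitotic genes, by these means.

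**Figure D5:**
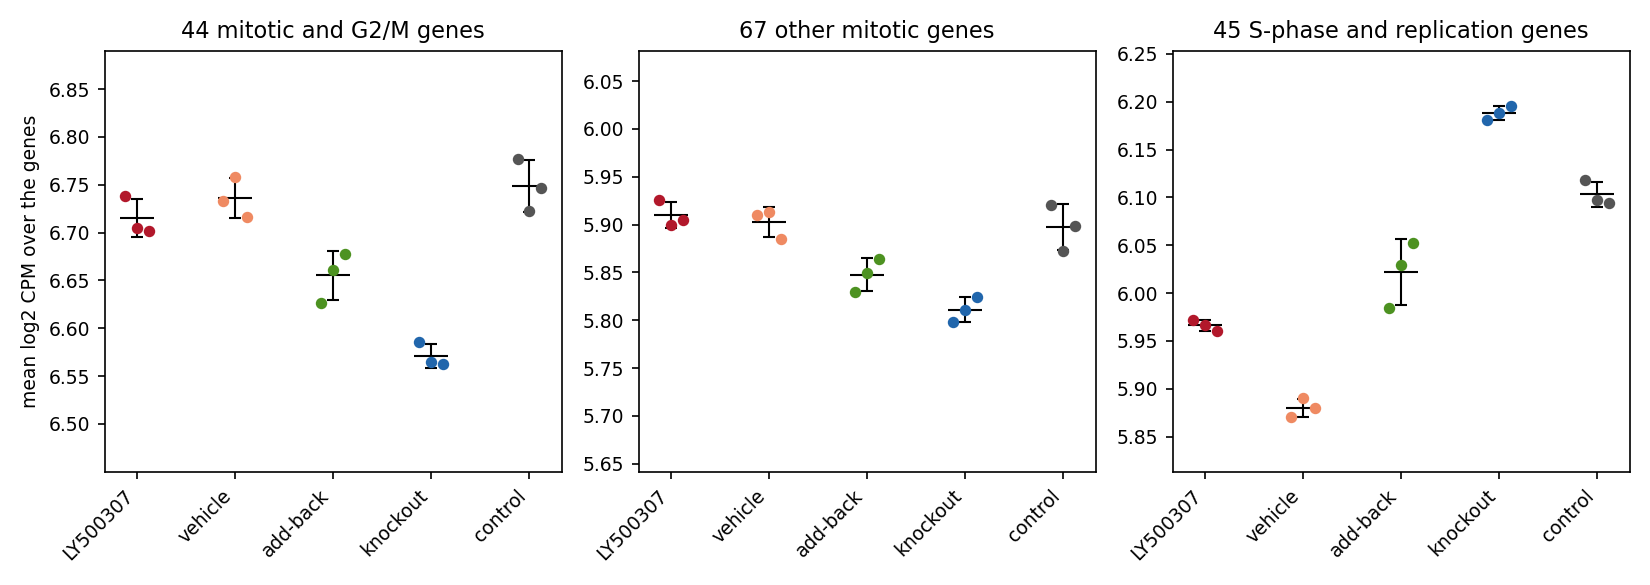
Mean log2 CPM in each library (points) over the 44 mitotic and G2/M genes, 67 other mitotic genes and 45 S-phase and replication genes, with the mean and SD of the 3 libraries of a group (line and bar). The 3 panels span the same height on axes that do not start at 0, and knockout libraries are lowest in the first panel and highest in the last.

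The gene values rest on few transcripts for many of these genes. Only transcripts that GENCODE links to a gene were ranked, and for 4 of the 44 genes these held under 90% of the counts. They held 23.7% for KIF11, 80.5% for ASPM, 85.9% for KIF23 and 86.1% for BORA. In 22 of the 44 the most abundant linked transcript held at least 80% of the counts assigned to the gene. It was protein coding in 43, MAD2L1 being the exception. Most KIF11 counts lay outside its linked transcript, so the most abundant transcript of KIF11 and its type are not known. Some shares differed between groups by over 10 points as RSEM assigned them. AURKB-214 held 47.1 ± 4.4% of AURKB counts in knockout cells, against 66.6 ± 1.97% in control cells (SD, n = 3 each). CENPA-202 held 50.8 ± 6.33% in knockout cells, against 69.3 ± 5.9% in control cells. Gene totals do not depend on this split, and no test was made of it. Reads shared with copies elsewhere matter most for UBE2C, whose annotated pseudogenes had 9.29% as many counts as the gene, while those of the other genes with named copies had at most 1.48%. For 10 genes, BORA, CCNA2, KIF4A, NUF2, ANLN, FOXM1, KIF20A and CDC25C among them, an annotated gene on the opposite strand with at least 20 counts overlaps, so their values hold only as far as counting used strand. The overlapping gene had more counts than the gene itself for CDC25C (FAM53C, 986 against 215 mean counts) and BORA (DIS3, 681 against 270).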

How the data were processed

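Ribosomal RNA-depleted total RNA was sequenced from 15 libraries, per the labels' protocols. The submitters' processing notes name GSNAP, RSEM, FastQC and Trim Galore, with GRCh38 as the genome and no versions. Expected counts of RSEM, for genes and for transcripts and without normalisation, are what the authors deposited. The annotation release and strand setting are not given in the sources used here. Expected counts were rounded, filtered with filterByExpr by group (19516 genes), scaled with TMM factors and fitted as 5 group means over the 15 libraries in edgeR 4.0.16 (R 4.3.3). Calls are from its two-sided quasi-likelihood F test with p-values adjusted after Benjamini and Hochberg over all genes of a comparison, at 0.05. GC content, length and positions came from GENCODE 29 (58396 of 60664 identifiers, and 19089 of the genes tested). Both the test and the offsets were first tried on simulated counts, which had fewer changed genes than were called here, so the trial does not check these calls. Named genes were 8 fixed ones (CDK1, CCNB1, PLK1, AURKA, FOXM1, TOP2A, MKI67, BORA) and, per comparison, up to 6 called genes with the largest non-overlapping differences plus up to 3 in the minority direction. The genes and lists were chosen with earlier results of these data known. Alternatives were DESeq2 1.42.0, limma-voom 3.58.1, RLE and upper-quartile factors, other filters, the 6 libraries alone, a replicate block, GC content and length offsets and leaving out single libraries. Squared differences between replicates of a group were 2.15 to 5.43 times those of counting error (chi-square per degree of freedom), so no library was a copy of another.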

Additional observations from a re-analysis of the deposited data

How the results depend on the processing

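Counts of called genes changed by no more than 1.5 times under 81 of 90 alternative settings and when single libraries were left out in 51 of 60 cases. For vehicle against untreated add-back, the GC content and length offsets gave 6 higher and 13 lower genes and turned the median (-0.041) and 17 genes, 7 of them called, TOP2A (-0.089, edgeR adjusted p = 0.0263) among them. For LY500307 against vehicle, lower genes numbered 4 with DESeq2, 2 with upper-quartile factors, 3 with limma-voom and 0 with no filter, with a CPM of at least 1 in 3 libraries and with the offsets, which also left 1 higher gene and turned the median to 0.013. For add-back against control the offsets turned 8 genes, among them PLK1 (-0.091, edgeR adjusted p = 0.0312) and 4 that had been called, TOP2A (0.0068), CENPE (0.016), INCENP (-0.074) and ESPL1 (-0.020). The cause was not tested. Without 1 library, the counts of higher and lower genes ran over 2 to 4 and 23 to 27 (knockout against control), 12 to 17 and 2 to 4 (add-back against knockout), 5 to 6 and 13 to 19 (add-back against control), 16 to 20 and 6 to 10 (vehicle against untreated add-back) and 2 to 5 and 0 to 1 (LY500307 against vehicle). The count of 2 higher genes in knockout cells came without knockout replicate 3, that of 2 lower in add-back against knockout cells without knockout replicate 3, add-back replicate 1 or add-back replicate 2, that of 5 higher with LY500307 without vehicle replicate 3, and that of 0 lower without vehicle replicate 1 or 2 or LY500307 replicate 1 or 2. Replicate numbers did not pair the libraries: correlations of residuals ran over -0.191 to 0.174 for 30 same-number pairs and -0.18 to 0.183 for 60 others, and 4 of 15 libraries matched best with their own number. With the replicate block the higher and lower counts were 3 and 27, 14 and 4, 5 and 17, 21 and 7, and 3 and 1 in the same order of comparisons, and TOP2A lost its call in add-back against control cells (edgeR adjusted p = 0.0672). With TPM from the longest annotated transcript, all 8 genes named in every comparison moved by more than 1 SD.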
